A study of Bos taurus with 9 samples.

Results

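UG-LIKE structures, the elongated tubes that bovine uterine gland fragments form in 3D culture with EGF, were compared between Matrigel supplemented with collagen I (MAT + COL) and Matrigel alone (MAT). The comparison took the 3 libraries of each condition as the sample labels give them, which is 6 of the 9 libraries of the series. The remaining 3 libraries, from cysts formed without EGF (CYST), served for levels and in an alternative fit of all 9 libraries. Fragments came from uteri collected at an abattoir, were embedded in 50% Matrigel in all groups, and were cultured for 5 days in serum-free medium with bovine serum albumin, ascorbic acid, transferrin, selenium and insulin. Both UG-LIKE groups received EGF, and the MAT + COL gel also contained bovine collagen I; the labels give neither dose. The CYST group had neither EGF nor collagen I. Each group had 3 replicates numbered 1 to 3, and libraries with the same number were treated as a pair. The labels do not say which animal or isolation a number stands for. The question of the comparison was which transcripts differ in UG-LIKE structures when collagen I is present in the surrounding gel.

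Collagen I is the main fibrillar collagen of connective tissue and surrounds the uterine glands in the endometrial stroma, whereas Matrigel is a basement membrane extract rich in laminin and collagen IV. Epithelial cells bind collagen I through integrin heterodimers of the ITGA1 or ITGA2 subunit with ITGB1 and through the discoidin domain receptors, and pull on it by actomyosin contraction under the control of RHOA and the ROCK kinases. EGF acts through EGFR and the ERK pathway, whose targets include immediate early transcription factors and feedback inhibitors.

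Libraries held between 6568968 and 17948600 reads counted on genes, and MAT replicate 1 was the shallowest, with a partner in MAT + COL of 17808510 reads. Mitochondrial genes took 0.656% to 1.22% of the reads. All 12 epithelial markers were above 1 TPM in every library, with a summed level of 32482 to 50039 TPM in the 6 UG-LIKE libraries. The 12 stromal fibroblast markers summed to 1258 to 4443 TPM in these 6 libraries, and 10 of them were above 1 TPM in each. DCN, for example, was at 236 to 1216 TPM. HAND2 was at 0 in 5 of these 6 libraries and at 0.112 TPM in MAT + COL replicate 2. Endothelial markers summed to 8.67 to 47.1 TPM, and CDH5, CLDN5 and ERG were at 0 in MAT replicate 2. Leukocyte, ciliated cell, and smooth muscle and pericyte markers summed to at most 56.5 TPM each in these libraries.

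No gene differed between MAT + COL and MAT at an adjusted p under 0.05. The edgeR quasi-likelihood test with the replicate number as a block called 0 of 12470 genes (0%), the smallest Benjamini-Hochberg adjusted p was 0.955, and 0 genes (0%) met the DEG criteria, which add a Log2FC beyond 1 in either direction and a TPM above 1 in each of the 6 libraries. Before adjustment, 618 genes (4.96%) had a p under 0.05, of which 269 (2.16%) were higher and 349 (2.80%) lower in MAT + COL. A threshold of 0.05 passes a share of 0.05 on average when no gene differs. The count of 0 changed most when the replicate 3 pair was left out, and why it did was not tested. Without that pair, the same test on the other 4 libraries called 46 of 12490 genes, 20 higher and 26 lower. Of these 46 genes, 16 met the DEG criteria. In 29 of those 46 the left-out pair had the opposite sign, and in 17 the same sign. PHLDA1, MFSD2A, F2R, AMIGO2, MME, COL1A1, COL3A1, TNFSF15 and EZR, described further on, were among them. Among the 46, PIGR, the receptor that carries immunoglobulin A across epithelia, was 22.1, 47.9 and 69.3 TPM in MAT and 69.9, 83.6 and 64.6 TPM in MAT + COL. Pair 3 of PIGR thus ran the other way from the first and second. ACTB, which encodes cytoplasmic actin, was 11159, 7174 and 8764 TPM in MAT and 6659, 5480.1 and 9274 TPM in MAT + COL, again with the first and second pairs lower and pair 3 slightly higher. Without replicate 1 the test called 0 genes, with 323 under an unadjusted p of 0.05. Without replicate 2 it called 1, GNMT_1, an entry for a glycine methyltransferase whose numbered name marks more than 1 entry for the symbol, so that reads may be split between near-identical copies. It was picked after its values were seen, and had 30, 100 and 99 reads in MAT and 0, 30 and 0 in MAT + COL.

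The 3 pairs shared little of their differences. Across the 12470 genes, the Spearman correlation of the log2 ratios, MAT + COL to MAT, was 0.11 between pairs 1 and 2, 0.03 between pairs 1 and 3, and -0.07 between pairs 2 and 3. These values are across genes, which are not independent replicates, and no test was made of them. The SD of the log2 ratios was 0.73, 0.52 and 0.55 in pairs 1, 2 and 3, and 1486, 756 and 795 genes lay beyond 1 log2 unit in them. Of the 756 in pair 2, 563 were higher and 193 lower in MAT + COL. In all 3 pairs, 1657 genes (13.3%) were higher and 1680 (13.5%) lower, together 3337 (26.8%). If either direction were equally likely in each of 3 independent pairs, a share of 0.25 would have 1 direction in all. For the same reason 3 pairs cannot bring an exact two-sided sign test below 0.25. The balance of directions depended on the scaling, since on the TPM scale, where the median gene was shifted upward by 0.13, 0.03 and 0.04 in the 3 pairs, 2543 were higher and 991 lower, so that 72.0% of the genes with 1 direction were higher against 49.7% with TMM scaling. CPM scaled by library totals alone gave 2072 higher and 1317 lower, or 61.1% higher.

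**Figure D1:**
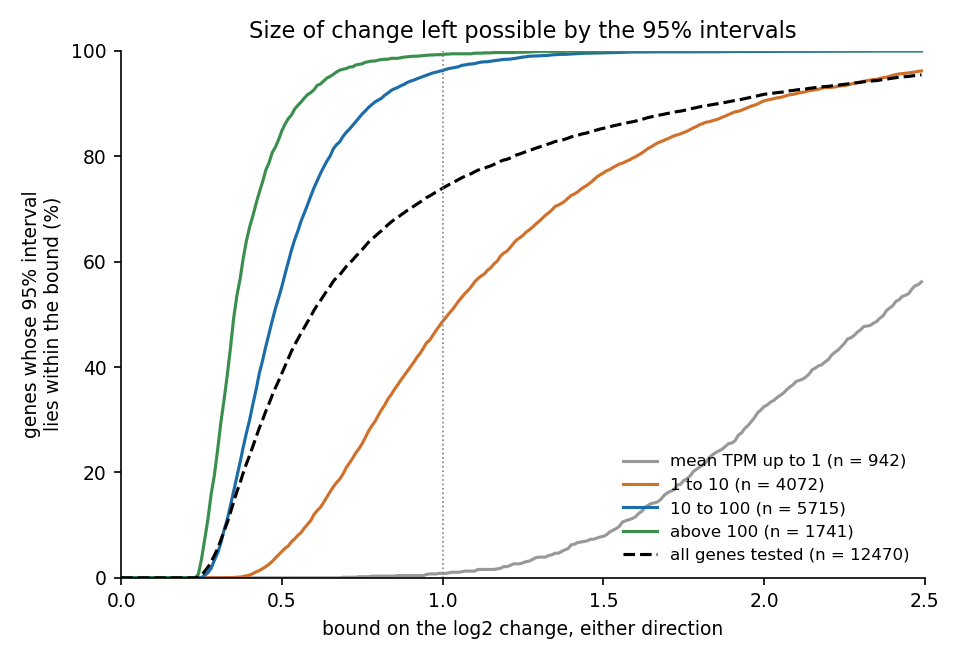
Share of genes (%) whose 95% interval for the Log2FC of MAT + COL against MAT lies within the bound on the horizontal axis (log2 units, either direction), by mean TPM of the 6 libraries and for all 12470 genes. At a bound of 1 (dotted line) the share was 0.849% for genes up to 1 TPM, 48.6% between 1 and 10 TPM, 96.2% between 10 and 100 TPM and 99.3% above 100 TPM.

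How large a difference the libraries could have missed depended on the level of the gene, as the plot of bounds shows. The 95% interval of the Log2FC lay within 1 log2 unit of 0, a doubling or halving, in 9217 of the 12470 genes (73.9%) and within a factor of 1.5 in 6115 (49.0%). Among the 10393 genes with a TPM above 1 in each of the 6 libraries, it lay within 1 log2 unit in 9122 (87.8%), and only 15 of these genes had an estimate beyond that size. Their median interval reached 0.37 log2 units to either side of the estimate, a factor of 1.29. For the 1741 genes above 100 TPM the reach was a factor of 1.20 and no estimate passed 1 log2 unit, whereas for the 942 genes of at most 1 TPM it was a factor of 3.53. When the intervals were widened to cover all genes at once, 336 genes remained within 1 log2 unit. Each interval covers the spread between these 3 pairs, and counting error is part of it.

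Directions shared by all 3 pairs were described for the genes with the smallest unadjusted p among those above 1 TPM in every library. All of them had an adjusted p of 0.955 in the edgeR fit, and their p-values helped to choose them, so that the values describe the libraries and are not a test. The lowest p belonged to PHLDA1 at chr5:5514123-5584854, a pleckstrin homology-like gene induced by growth factor signaling. PHLDA1 was 15.8, 13.0 and 19.4 TPM in MAT and 9.94, 5.57 and 14.4 TPM in MAT + COL, against 16.6, 8.44 and 8.47 TPM in CYST. Each MAT + COL library was below its partner, although the ranges of the groups overlapped, and the Log2FC was -0.85 (95% interval -1.17 to -0.52), a ratio of 0.557. DESeq2 with the same block gave it an adjusted p of 0.00612, the only call of that tool. Over 11 alternative fits the adjusted p of PHLDA1 ran from 0.00612 to 1.00 and passed the threshold in 3. MFSD2A at chr3:106122952-106135921, a transporter of lysophosphatidylcholine, was 72.4, 30.7 and 88.7 TPM in MAT and 32.6, 17.7 and 68.2 TPM in MAT + COL. F2R, the thrombin receptor, was 60.8, 17.8 and 69.0 TPM in MAT and 30.7, 10.6 and 54.4 TPM in MAT + COL. In both genes replicate 2 was the lowest library of each group, so that the groups overlapped while every pair pointed down, with a Log2FC of -0.84 (-1.21 to -0.48) and -0.76 (-1.10 to -0.43).

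**Figure D2:**
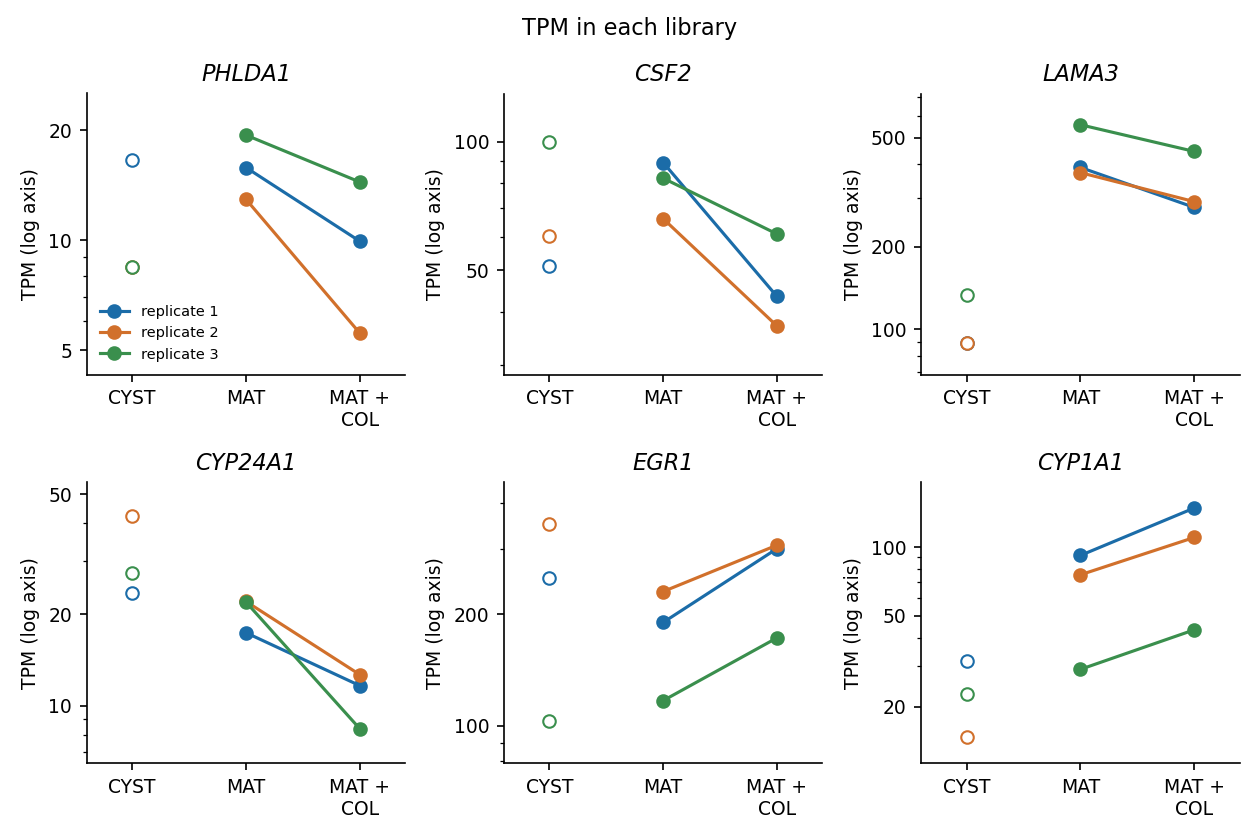
TPM (log axis) of PHLDA1, CSF2, LAMA3, CYP24A1, EGR1 and CYP1A1 in each library of CYST (open circles), MAT and MAT + COL (filled circles), with lines joining the MAT and MAT + COL libraries of the same replicate number. In PHLDA1, CSF2, LAMA3 and CYP24A1 every line slopes down, in EGR1 and CYP1A1 every line slopes up, and none of the 6 genes passed the adjusted test.

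Separate ranges were found for CSF2 and CYP24A1. CSF2 at chr7:22398938-22401303, which encodes the cytokine GM-CSF, was 89.4, 66.1 and 82.2 TPM in MAT and 43.4, 37.1 and 60.9 TPM in MAT + COL, with 51.3, 60.3 and 99.8 TPM in CYST. The highest MAT + COL library stayed below the lowest MAT library, and the Log2FC was -0.84 (95% interval -1.26 to -0.42). CYP24A1 at chr13:81592173-81610648, the enzyme that inactivates vitamin D, was 17.4, 22.1 and 21.98 TPM in MAT and 11.6, 12.7 and 8.38 TPM in MAT + COL, with 23.5, 42.1 and 27.4 TPM in CYST. Its ranges did not overlap either, the pair log2 ratios were -0.71, -0.83 and -1.44, and the Log2FC was -1.002 (95% interval -1.53 to -0.48). Over all genes tested, 102 (0.818%) had TPM ranges that were lower in MAT + COL without overlap and 343 (2.75%) had ranges that were higher. These ranges are on the TPM scale, where the median gene was shifted upward by 0.13, 0.03 and 0.04 in the 3 pairs. Whether the balance holds on another scale was not tested.

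The other genes of the lower group had smaller or more uneven differences. RFLNB, a partner of filamin, had a Log2FC of -0.54 (95% interval -0.80 to -0.29), TXN, which encodes the redox protein thioredoxin, of -0.47 (95% interval -0.74 to -0.20), and SLC16A1, a lactate transporter, of -0.50 (95% interval -0.79 to -0.21). ABHD17A, a depalmitoylating enzyme, was 31.8, 6.05 and 75.3 TPM in MAT and 14.2, 3.53 and 52.1 TPM in MAT + COL. The replicate numbers differed more than the gels did, since replicate 2 was below 10 TPM and replicate 3 above 50 TPM in both groups.

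On the higher side, the pair ratios of CYP1A1, RTP3 and EGR1 were the most even among the 10 genes. EGR1 at chr7:49826449-49830278, an immediate early transcription factor of the ERK pathway, was 190.4, 231 and 117 TPM in MAT and 302, 308 and 173 TPM in MAT + COL, with 251, 351 and 103 TPM in CYST. The groups overlapped because replicate 3 was low in both, and the pair log2 ratios were 0.53, 0.38 and 0.50, with a Log2FC of 0.47 (95% interval 0.23 to 0.71). CYP1A1 at chr21:33949148-33955226, a target of the aryl hydrocarbon receptor, was 91.9, 75.6 and 29.2 TPM in MAT and 148, 110.1 and 43.4 TPM in MAT + COL, with 31.5, 14.7 and 22.6 TPM in CYST. Here too replicate 3 was the lowest of both groups, and the pair ratios were 0.55, 0.51 and 0.51 with a Log2FC of 0.53 (95% interval 0.27 to 0.78). MME, which encodes the membrane peptidase neprilysin, was 9.73, 15.2 and 18.4 TPM in MAT and 27.5, 26.1 and 24.2 TPM in MAT + COL and 104, 85.8 and 30.4 TPM in CYST. All 3 MAT + COL libraries lay above all 3 MAT libraries, although the pair ratios ranged widely, at 1.36, 0.75 and 0.33.

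AMIGO2, a leucine-rich repeat adhesion protein, was 40.5, 16.6 and 2.48 TPM in MAT and 97.2, 27.1 and 3.44 TPM in MAT + COL. The replicates spread over more than 10-fold within each group, so that the group ranges overlapped, and the Log2FC within pairs was 0.79 (95% interval 0.42 to 1.15). ACKR3, a scavenging receptor for the chemokine CXCL12, was 7.55, 3.64 and 18.1 TPM in MAT and 13.7, 12.4 and 28.6 TPM in MAT + COL, and pair 2 carried its largest ratio (0.71, 1.70 and 0.60). CFI, the complement factor I protease, was 7.01, 15.1 and 1.85 TPM in MAT and 17.0, 24.2 and 3.37 TPM in MAT + COL and higher in CYST, at 72.9, 77.3 and 8.95 TPM. VSIG1, an adhesion protein of the immunoglobulin superfamily, FAM13B and RTP3 had a Log2FC of 0.53 (0.26 to 0.80), 0.92 (0.36 to 1.48) and 0.52 (0.21 to 0.83).

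**Figure D3:**
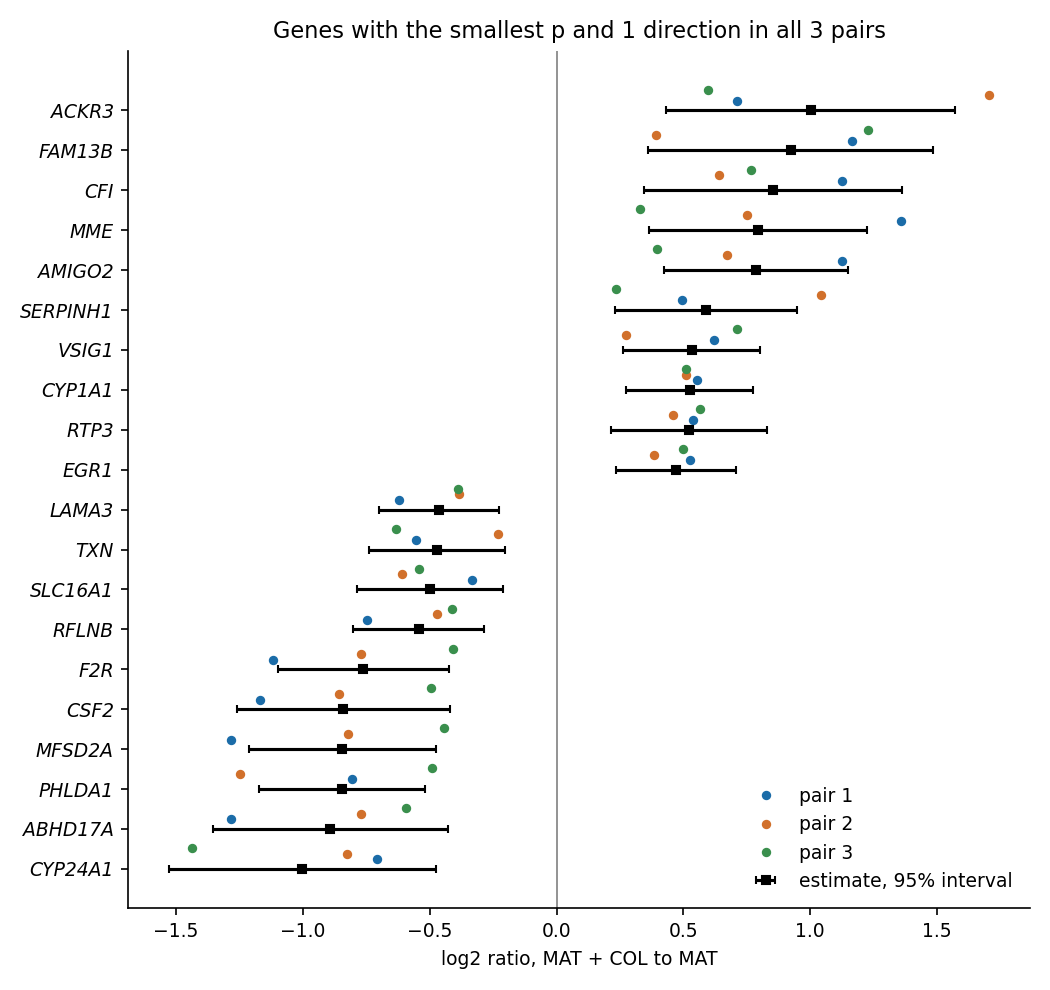
Log2 ratios of MAT + COL to MAT in pairs 1, 2 and 3 (coloured points) and the Log2FC of the blocked fit with its 95% interval (black squares and bars) for the 10 higher and 10 lower genes with the smallest unadjusted p among those with 1 direction in all 3 pairs and a TPM above 1 in each library. The estimates run from -1.002 for CYP24A1 to 1.00 for ACKR3, and the intervals cover single genes without adjustment for the 12470 tested.

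Genes of at least 1.5-fold in every pair were few above 1 TPM, a limit that does not exclude low read counts. Over all genes tested there were 57 higher and 38 lower, and 9 higher and 8 lower were above 1 TPM in each library. The higher ones with a symbol were RYK, UBXN11, CFI, FBXO44, PPIL6, ACKR3 and ST8SIA4, and the lower ones CYP24A1, ING1, ABHD17A, USHBP1, URAH, PKD2L1 and AGGF1_2. No gene above 1 TPM in each library was 2-fold apart in every pair. ST8SIA4, a polysialyltransferase picked after its values were seen, had the largest Log2FC of these, 1.29 (95% interval 0.28 to 2.30), at 1.84, 2.62 and 1.20 TPM in MAT and 7.35, 6.23 and 2.20 TPM in MAT + COL. Among genes with separate ranges and a TPM above 1 in each library, FBXO44, an F-box protein of a ubiquitin ligase, was 5.56, 3.96 and 3.82 TPM in MAT and 13.6, 7.58 and 6.98 TPM in MAT + COL. URAH, a hydrolase of uric acid breakdown, was 18.8, 13.3 and 13.5 TPM in MAT and 10.1, 8.64 and 7.29 TPM in MAT + COL. Both kept their groups apart in every library. USHBP1 had a Log2FC of -0.89 (95% interval -1.57 to -0.21). DNAI7 and ACMSD, an enzyme of tryptophan breakdown, were the largest higher ones, at 1.19 (0.11 to 2.28) and 1.12 (-0.15 to 2.39), and PIERCE1, a protein of ciliary microtubules, the largest lower one under that limit on TPM, at -1.11 (-2.39 to 0.17). The unnamed gene ENSBTAG00000048849 and PPIL6 followed at 1.01 and 1.00, with intervals that included 0, as did those of ACMSD and PIERCE1. Several of these genes rested on few reads. In MAT, PPIL6 had 6, 11 and 11 reads, ENSBTAG00000048849 4, 17 and 14, and ACMSD 9, 23 and 10. DNAI7 had 11, 29 and 20 there, ST8SIA4 10, 38 and 13, AGGF1_2 14, 47 and 27, and PIERCE1 18, 39 and 67.

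Collagen receptor transcripts were present in both gels, and their bounds varied in width. Of the 10 tested members of this list, 0 were called. At an unadjusted p under 0.05, 0 were higher and 2 lower (20%, against 4.96% of all genes in either direction). In all 3 pairs 1 was higher (10%, against 13.3% of all genes) and 2 lower (20%, against 13.5%). The median Log2FC was -0.10 against 0.00 over all genes. For 7 the interval lay within 1 log2 unit (70%, against 73.9% of all genes). ITGB1, the shared beta subunit, was 550.0, 652 and 546 TPM in MAT and 649, 656 and 591 TPM in MAT + COL. The groups overlapped, and its Log2FC was 0.04 (95% interval -0.19 to 0.27). ITGA2 was 112, 105 and 201 TPM in MAT and 76.8, 105 and 139 TPM in MAT + COL, with a Log2FC of -0.44 (95% interval -0.74 to -0.13) and pair 2 near 0. ITGA1 was 15.6, 7.68 and 26.0 TPM in MAT and 12.9, 15.7 and 16.7 TPM in MAT + COL, with pair ratios of -0.41, 0.99 and -0.70, so that the second pair opposed the others. DDR1, the epithelial discoidin receptor, was 15.1, 10.1 and 16.5 TPM in MAT and 17.4, 12.3 and 21.4 TPM in MAT + COL, higher in all 3 pairs with a Log2FC of 0.22 (95% interval -0.14 to 0.58). DDR2, the form typical of stromal cells, lay between 0.173 and 3.77 TPM with pair ratios of -2.29, 2.43 and -0.44, and its interval of -1.94 to 1.39 was wide in both directions. CD44, a receptor for hyaluronan that also binds collagen, had a Log2FC of -0.39 (95% interval -0.64 to -0.14) and was lower in all 3 pairs. Of the other 10 integrin subunits, 3 were higher and 2 lower in all pairs. ITGAV, a subunit of fibronectin and vitronectin receptors, was 146, 101 and 76.3 TPM in MAT and 127, 81.6 and 45.2 TPM in MAT + COL, with a Log2FC of -0.50 (95% interval -0.78 to -0.21), and ITGA6, a laminin receptor subunit and the most abundant of this list, had -0.19 (95% interval -0.43 to 0.05).

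Contractility and adhesion genes were bounded closely where they were abundant. Among the 31 tested genes of the ROCK and actomyosin list, 0 were called, 1 was higher and 3 lower at an unadjusted p under 0.05, 2 were higher and 5 lower in all pairs, the median was -0.08 and 27 had an interval within 1 log2 unit. RHOA was 1788, 1791 and 1604 TPM in MAT and 1866, 1695 and 1706 TPM in MAT + COL, with an interval of -0.28 to 0.18. ROCK1 was 25.6, 19.5 and 26.8 TPM in MAT and 17.8, 19.1 and 21.1 TPM in MAT + COL and ROCK2 was 9.32, 6.83 and 6.94 TPM in MAT and 9.27, 7.81 and 9.44 TPM in MAT + COL. The estimates of the kinases pointed in opposite directions, -0.37 (95% interval -0.69 to -0.06) for ROCK1 and 0.14 (95% interval -0.27 to 0.54) for ROCK2. MYH9, the heavy chain of nonmuscle myosin, was 25.9, 27.2 and 33.9 TPM in MAT and 17.4, 23.8 and 26.4 TPM in MAT + COL with a Log2FC of -0.45 (95% interval -0.74 to -0.16), and EZR, the membrane-actin linker ezrin, was 7003, 3265 and 4875 TPM in MAT and 3903, 2791 and 6807 TPM in MAT + COL. In EZR pairs 1 and 2 pointed down and pair 3 up.

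Of the 25 focal adhesion genes, 0 were higher and 3 lower in all pairs, with a median of -0.06. ILK, the integrin-linked kinase, had an interval of -0.34 to 0.23. The 19 tested SRF and MRTF targets had a median of 0.07, with 4 higher and 0 lower in all pairs, and the 18 genes of YAP, TAZ and their targets a median of -0.03, with 1 higher and 4 lower. TEAD1, a DNA-binding partner of YAP, was 6.90, 4.39 and 13.6 TPM in MAT and 3.45, 3.81 and 9.58 TPM in MAT + COL, with a Log2FC of -0.64 (95% interval -1.18 to -0.09). F3, the tissue factor gene and the most abundant of that list, had an interval of -0.34 to 0.22.

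Laminin and hemidesmosome genes had the largest share lower in every pair among the 20 lists, 6 of 18 (33.3%, against 13.5% of all genes), with 1 higher, and 5 were lower at an unadjusted p under 0.05, yet the list median was -0.04 and 0 were called. LAMA3 and LAMB3 encode chains of a laminin that anchors hemidesmosomes. LAMA3 was 389, 372 and 557 TPM in MAT and 278, 292 and 445 TPM in MAT + COL, with 88.8, 89.1 and 133 TPM in CYST. LAMB3 was 1023, 382 and 1175 TPM in MAT and 507, 333 and 1009.9 TPM in MAT + COL. Every pair was lower in both genes, and the group ranges overlapped. The Log2FC was -0.46 (95% interval -0.70 to -0.22) for LAMA3 and -0.55 (95% interval -0.92 to -0.18) for LAMB3. PLEC, the linker of hemidesmosomes to keratin, had -0.58 (95% interval -0.92 to -0.24). COL17A1, a transmembrane collagen of hemidesmosomes, was 17.3, 11.3 and 24.0 TPM in MAT and 10.9, 6.83 and 24.5 TPM in MAT + COL, with pair ratios of -0.81, -0.76 and -0.03. Pair 3 of COL17A1 was lower with TMM scaling and higher on the TPM scale. Without replicate 3 the edgeR test called LAMA3, LAMB3 and PLEC, at adjusted p-values of 0.0473, 0.0438 and 0.0493, and none of the other alternative fits called any of them.

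**Figure D4:**
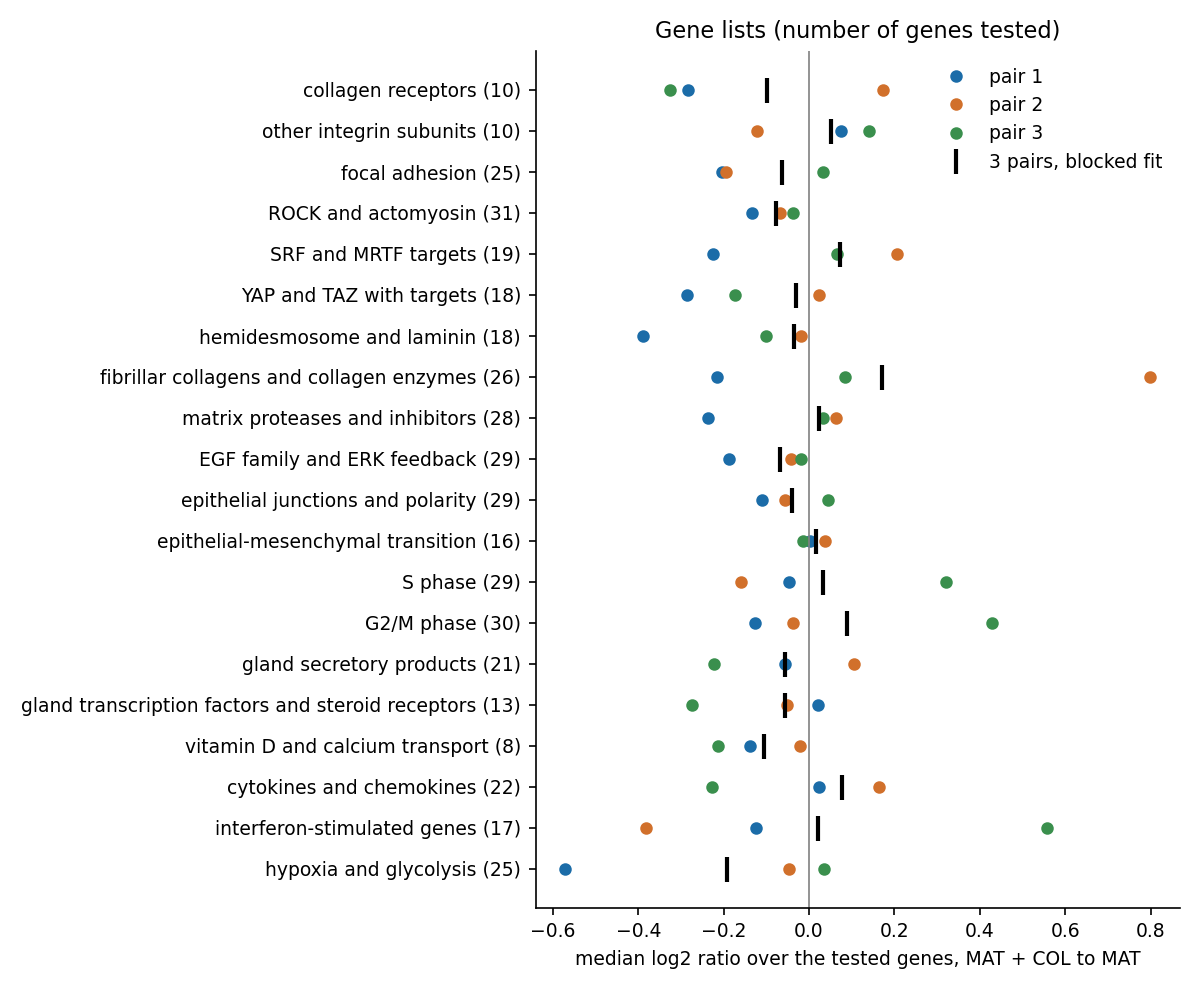
Median log2 ratio of MAT + COL to MAT over the tested genes of 20 lists (number of genes in parentheses), in pairs 1, 2 and 3 (coloured points) and in the blocked fit of the 3 pairs (black ticks). The fibrillar collagen list lies at 0.80 in pair 2 and at -0.21 and 0.08 in pairs 1 and 3, and the blocked medians stay between -0.19 and 0.17.

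Transcripts of fibrillar collagens and collagen enzymes differed mainly in pair 2. The list of 26 had 0 called, 3 higher and 0 lower at an unadjusted p under 0.05, 5 higher and 0 lower in all pairs, and a median of 0.17. COL1A1 was 148, 76.7 and 290.2 TPM in MAT and 204, 225 and 349 TPM in MAT + COL, with 137, 338 and 350.3 TPM in CYST. COL1A2 was 328, 135 and 529 TPM in MAT and 356, 387 and 568 TPM in MAT + COL, and COL3A1 was 375, 145 and 608 TPM in MAT and 478, 481 and 697 TPM in MAT + COL. MAT replicate 2 was the lowest library for each of these genes, and the ranges overlapped. Pair log2 ratios were 0.33, 1.52 and 0.20 for COL1A1 and -0.02, 1.48 and 0.04 for COL1A2, with a Log2FC of 0.68 (95% interval 0.21 to 1.15) and 0.49 (95% interval -0.04 to 1.03). SERPINH1, a chaperone of procollagen in the endoplasmic reticulum, was 18.5, 13.1 and 32.8 TPM in MAT and 28.6, 27.7 and 40.3 TPM in MAT + COL, higher in all pairs with a Log2FC of 0.59 (95% interval 0.23 to 0.95). P4HB, a subunit of prolyl hydroxylase and the most abundant member, had -0.12 (95% interval -0.39 to 0.14).

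The summed stromal fibroblast markers, which include COL1A1, COL1A2 and COL3A1, were 2214, 1258 and 3994 TPM in MAT and 2323, 2503 and 4443 TPM in MAT + COL. They were lowest in MAT replicate 2, as the collagen transcripts were. Of the 11 tested, 5 were higher and 1 lower at an unadjusted p under 0.05, 3 were higher and 1 lower in all pairs, and the median was 0.07, 1.19 and 0.04 in the 3 pairs. DCN, the proteoglycan decorin, was 453, 236 and 996 TPM in MAT and 487, 549 and 1216 TPM in MAT + COL, and VIM, the intermediate filament vimentin, was 493, 452 and 796 TPM in MAT and 327, 398 and 809.7 TPM in MAT + COL. VIM was the member on the lower side, with a Log2FC of -0.33 (95% interval -0.63 to -0.02) and a ratio in pair 3 that was lower with TMM scaling and higher on the TPM scale. In pair 2 the endothelial markers summed to 8.67 TPM in MAT and 16.3 TPM in MAT + COL. PECAM1 was 3.18, 0.265 and 8.56 TPM in MAT and 4.31, 2.39 and 8.32 TPM in MAT + COL. ACTA2 of smooth muscle was 36.3, 10.9 and 31.3 TPM in MAT and 30.9, 29.7 and 30.9 TPM in MAT + COL. The part of these cell types in the collagen values was not tested. In bulk libraries fewer cells of a type and less RNA per cell cannot be told apart.

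**Figure D5:**
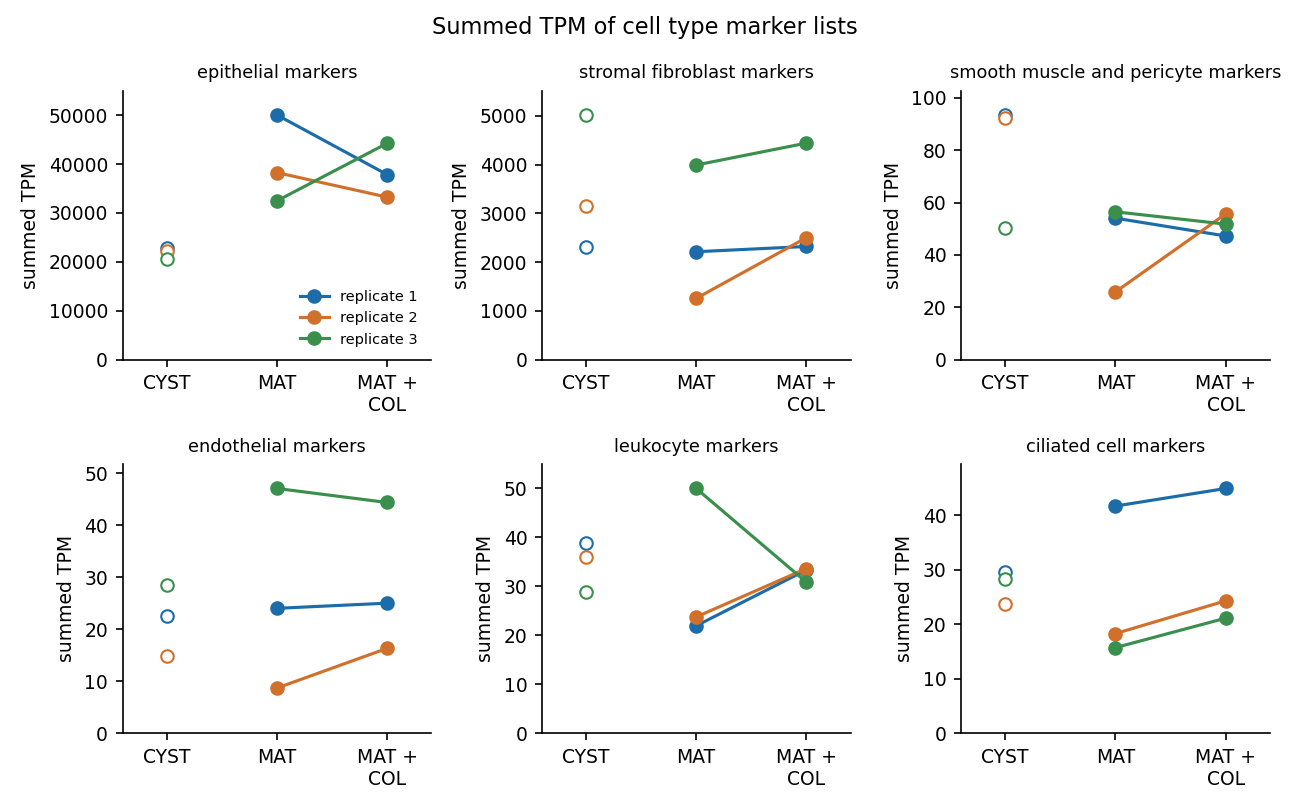
Summed TPM (linear axes from 0) of 6 cell type marker lists in each library of CYST (open circles), MAT and MAT + COL (filled circles), with lines joining same-numbered MAT and MAT + COL libraries. The stromal sum goes from 1258 to 2503 TPM in replicate 2 and from 2214 to 2323 TPM in replicate 1, and the epithelial sum lies between 32482 and 50039 TPM in MAT and MAT + COL.

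Matrix proteases were abundant in both gels. Of 28 tested, 0 were called, 1 was higher and 2 lower at an unadjusted p under 0.05, and the median was 0.02. MMP13, a collagenase, was 3452, 3556 and 1919 TPM in MAT and 2303, 2710.1 and 1758 TPM in MAT + COL, with 375, 618 and 456 TPM in CYST. It was lower in all 3 pairs with overlapping ranges and a Log2FC of -0.44 (95% interval -0.71 to -0.17), and without replicate 3 the edgeR test called it at an adjusted p of 0.0229. The same fit called MMP9, the gelatinase B gene, in the other direction, at a Log2FC of 0.87 and an adjusted p of 0.0330, and with all 3 pairs MMP9 had 0.43 (95% interval -0.12 to 0.97), with pair 3 lower. MMP1, the interstitial collagenase, had a Log2FC of 0.15 (95% interval -0.19 to 0.48) and pair ratios of -0.20, 0.65 and -0.01.

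Within the EGF family and ERK feedback list of 29 genes, 0 were called, 2 were higher (EGR1 and EREG) and 5 lower (PHLDA1, EGFR, JUNB, SPRY4 and ETV5) at an unadjusted p under 0.05, 4 were higher and 8 lower in all pairs, and the median was -0.07. EGFR was 44.5, 28.8 and 56.6 TPM in MAT and 34.6, 25.8 and 43.2 TPM in MAT + COL, lower in every pair with overlapping ranges, and its Log2FC was -0.38 (95% interval -0.65 to -0.11). EREG, the ligand epiregulin, was 24.5, 24.7 and 19.8 TPM in MAT and 55.7, 28.9 and 29.7 TPM in MAT + COL, with a Log2FC of 0.58 (95% interval 0.20 to 0.96). SPRY4 and ETV5, an inhibitor and a transcription factor induced by ERK, had -0.40 (95% interval -0.76 to -0.03) and -0.72 (95% interval -1.44 to -0.01). IER3, the most abundant of the list, had -0.24 (95% interval -0.53 to 0.05).

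Cytokine and chemokine genes were the least closely bounded of the lists with 20 or more tested members, since 9 of 22 had an interval within 1 log2 unit. At an unadjusted p under 0.05, 2 were higher (CSF1 and IL33) and 6 lower (CCL20, CSF2, TNFSF15, TNFAIP3, NFKBIA and TNF), and the list median was 0.08, between -0.15 without replicate 2 and 0.29 without replicate 3. TNFSF15 was 91.2, 97.7 and 94.0 TPM in MAT and 36.4, 56.0 and 104 TPM in MAT + COL, lower in pairs 1 and 2 and higher in pair 3. CCL20, a chemokine for dendritic cells and lymphocytes, was 5.00, 0.703 and 11.3 TPM in MAT and 0.485, 0 and 2.74 TPM in MAT + COL, lower in all pairs at levels under 12 TPM. PTGS2, the prostaglandin synthase and the most abundant of the list, was 76.4, 159 and 1196 TPM in MAT and 115, 263 and 728 TPM in MAT + COL, with pairs 1 and 2 higher and pair 3 lower. Of 17 interferon-stimulated genes, 1 was higher and 1 lower in all pairs, and the pair medians were -0.12, -0.38 and 0.56. IFI6 was 94.5, 40.2 and 80.7 TPM in MAT and 136, 65.5 and 112 TPM in MAT + COL and had a Log2FC of 0.49 (95% interval 0.16 to 0.81).

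Most proliferation genes had an interval within 1 log2 unit. In the G2/M list 29 of 30 genes did and 17 had one within a factor of 1.5, while 7 were higher and 1 lower in all pairs, and the median was 0.09, with 0.43 in pair 3. In the S phase list 26 of 29 lay within 1 log2 unit and 14 within a factor of 1.5, with a median of 0.03. The intervals of CLSPN, CDT1 and BRIP1 passed 1 log2 unit, at -0.32 to 1.21, -1.55 to 1.03 and -0.21 to 1.01. MKI67, the gene of the Ki67 antigen, was 5.77, 4.37 and 10.4 TPM in MAT and 1.04, 5.14 and 11.8 TPM in MAT + COL. Pair 1 alone was far apart, with a log2 ratio of -2.57, and the interval of -1.55 to 0.33 included 0. BUB1B, a mitotic checkpoint kinase, was 5.73, 21.3 and 14.8 TPM in MAT and 9.16, 27.2 and 20.6 TPM in MAT + COL, with a Log2FC of 0.42 (95% interval 0.06 to 0.77), and GINS3, of the replicative helicase, had 0.51 (95% interval 0.11 to 0.91). The abundant RRM1 and CKS2 had intervals of -0.21 to 0.28 and -0.31 to 0.26.

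Gland products and regulators gave 0 calls as well. Of 21 secretory genes, 0 were higher and 4 lower in all pairs, with a median of -0.06. CST6, a cysteine protease inhibitor, was 3359, 2649 and 2692 TPM in MAT and 2881, 2294 and 2747 TPM in MAT + COL, and its Log2FC was -0.21 (95% interval -0.46 to 0.04). SPP1, the integrin ligand osteopontin, had 0.17 (95% interval -0.10 to 0.43). Of 13 transcription factors and steroid receptors, 2 were higher and 4 lower in all pairs. FOXA2, a regulator of gland development, was 2.33, 1.84 and 12.4 TPM in MAT and 1.504, 1.31 and 5.67 TPM in MAT + COL, lower in every pair with a Log2FC of -0.86 (95% interval -1.63 to -0.08). MSX1 had -0.34 (95% interval -0.64 to -0.04), and ESR1, the estrogen receptor, -0.01 (95% interval -0.32 to 0.30). In the vitamin D and calcium list of 8, CYP24A1 alone was under an unadjusted p of 0.05. S100G, a calcium-binding protein, was 1976, 936 and 1569 TPM in MAT and 3283, 1001 and 931 TPM in MAT + COL, with each pair at a different ratio (0.60, 0.06 and -0.82), and VDR, the vitamin D receptor, stayed under 2 TPM.

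Junction and metabolic genes completed the lists. Of 29 junction and polarity genes, 27 had an interval within 1 log2 unit, 3 were higher and 6 lower in all pairs, and the median was -0.04. CLDN4, a claudin, had a Log2FC of 0.13 (95% interval -0.10 to 0.36) and CDH1, the epithelial cadherin, of -0.17 (95% interval -0.40 to 0.06). CLDN10 was 8.64, 3.36 and 25.1 TPM in MAT and 2.87, 2.78 and 8.98 TPM in MAT + COL, with a Log2FC of -1.22 (95% interval -2.14 to -0.30) and levels of 85.8, 120.1 and 25.7 TPM in CYST. It was lower in all pairs, but pair 2 by far less than the others. The 16 genes of epithelial-mesenchymal transition had a median of 0.02, with 2 higher and 2 lower in all pairs, and S100A4 had -0.38 (95% interval -0.64 to -0.13). In the hypoxia and glycolysis list of 25, 0 were higher and 6 lower in all pairs, and the median of -0.19 was -0.57, -0.05 and 0.03 in the pairs. GAPDH was 5043, 4637 and 8888 TPM in MAT and 3180.1, 4671 and 8058 TPM in MAT + COL, lower in all pairs with TMM scaling but higher in pair 2 on the TPM scale, and ANKRD37, a target of hypoxia-inducible factor, had a Log2FC of -0.61 (95% interval -1.06 to -0.16).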

How the data were processed

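RNA from 9 cultures was sequenced with a SMART-Seq kit as paired-end reads of 150 bases, from samples with an RNA integrity number above 7.5. The authors aligned trimmed reads to ARS-UCD2.0 in CLC Genomics Workbench 25.0.1 with default parameters and deposited counts of reads on each of 20679 genes that were not normalized. A TPM for each gene and library was deposited beside the counts. The strand setting of the counting is not given in the sources used here, so overlapping and antisense genes may share reads. Coordinates are those of the deposited files.

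The counts of the 3 MAT and 3 MAT + COL libraries were fitted with edgeR 4.0.16 under R 4.3.3 (filterByExpr with a minimum count of 10, TMM, glmQLFit and glmQLFTest) and Benjamini-Hochberg adjustment over all genes tested. The replicate number was a block, because the study describes its dendrogram as divided by individuals, and because libraries of 1 number departed from the means of their groups together, with correlations of 0.471, 0.613 and 0.687. The 95% intervals were the estimate plus or minus a t quantile times a standard error. That standard error was calculated back from the estimate and the F statistic of the test, so the intervals are approximate. Pair ratios used log2 CPM with a prior count of 2. Limma 3.58.1 and DESeq2 1.42.0 served as alternatives.

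Named genes were the 10 in each direction with the smallest unadjusted p, 1 direction in all pairs and a TPM above 1 in each library; the 5 in each direction with the largest Log2FC, separate TPM ranges and the same limit on TPM; the member of each of 20 gene lists and 6 marker lists with the smallest p and that with the highest TPM; and 12 genes of the collagen, ROCK and EGF pathways. Some genes that met these rules are not reported here. Further list members were chosen once their values had been seen. The members and lists were chosen with earlier results of these data known. No sequences were used here. Matplotlib 3.10.9 under Python 3.11.15 drew the figures.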

Additional observations from a re-analysis of the deposited data

How the results depend on the processing

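For genes of at most 1 TPM the median interval reached a factor of 3.53, so that smaller differences in them were within the intervals, which cover counting error and the spread between the 3 pairs. Counts were also downsampled to the shallowest library, MAT replicate 1 at 6568968 reads. The median reach was then 0.41 log2 units over 11491 genes, against 0.41 over 12470 with all reads. Because the filter on low counts was applied again, the gene sets differ, and the reach was not compared on the same genes. The count of 0 called genes held without the replicate block and with RLE size factors, all 9 libraries in the fit, counts downsampled to the shallowest library, and limma voom. DESeq2 called 1 gene (PHLDA1), the fit with no filter on low counts 3 (MFSD2A, PHLDA1 and GNMT_1), and limma on log2(TPM + 1) 1 (GNMT_1). Leaving out each replicate number in turn gave 0 to 46 called genes and 0 to 16 DEGs, the upper values without replicate 3. Genes with an unadjusted p under 0.05 numbered 51 without the replicate block and 188 with all 9 libraries, and 323 to 995 with a replicate left out. The block was kept because same-numbered libraries deviated together. Both fits called 0 genes, and without the block the median reach of the intervals was 0.71 log2 units, against 0.41 with it.

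Genes higher in all 3 pairs numbered 2543 and genes lower 991 with TPM in place of TMM-scaled CPM, 744 and 759 when each pair had to differ by at least 0.1, and 57 and 38 when each had to differ by a factor of 1.5, a setting added after the data had been seen. In the pairs that remained without each replicate, also an added setting, 2858 to 3490 were higher and 3068 to 3315 lower. Why these counts moved was not tested, apart from the fewer pairs and the stricter limits themselves.

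Some named genes changed sign. Without the replicate block the Log2FC was -0.46 for PTGS2, -0.039 for FOXJ1, 0.093 for S100G and 0.016 for CKS2, and S100G was 0.032 with all 9 libraries. With limma on log2(TPM + 1) it was 0.017 for F3, 0.022 for ILK, 0.033 for CD14, 0.025 for S100G, 0.043 for CKS2 and 0.025 for ITGA1. With a replicate left out, the Log2FC ran from -1.11 to 0.16 for MKI67, -0.62 to 0.081 for EZR, -0.12 to 1.51 for RGS5, -0.21 to 0.65 for ACTA2, -0.20 to 0.029 for P4HB, -0.41 to 0.12 for KRT19, -0.13 to 0.24 for VWF, -0.16 to 0.57 for PTGS2, -0.19 to 0.073 for F3, -0.23 to 0.035 for ILK, -0.19 to 0.39 for FOXJ1, -1.33 to 0.82 for DDR2, -0.00217 to 0.11 for RRM1, -0.34 to 0.40 for CD14, -0.38 to 0.33 for S100G, -0.17 to 0.065 for CKS2 and -0.55 to 0.30 for ITGA1.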

Other observations

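Genes called only when replicate 3 was left out, and not described so far, are given here as values. ALDH1A3, a retinaldehyde dehydrogenase, was 365.6, 303 and 508 TPM in MAT and 120.5, 224 and 615 TPM in MAT + COL. CCND1, which encodes the cell cycle regulator cyclin D1, was 98.3, 58.6 and 149 TPM in MAT and 47.3, 37.1 and 142 TPM in MAT + COL, lower in all 3 pairs. UGT2A1, a glucuronosyltransferase, was 25.1, 15.5 and 1.43 TPM in MAT and 59.8, 28.2 and 1.08 TPM in MAT + COL. CXCL5, a chemokine for neutrophils, was 241, 129 and 466 TPM in MAT and 317, 406 and 395 TPM in MAT + COL. In ALDH1A3, UGT2A1 and CXCL5 pair 3 pointed the other way from the first and second.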
